A study of Mus musculus with 3 samples.

Results

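The cells described here are CD4 T cells of the islet infiltrate that carried RNA of Eomes, the gene of the T-box transcription factor eomesodermin. They were chosen cell by cell from raw counts of unique molecular identifiers (UMIs), each of which stands for 1 captured RNA molecule. A cell was taken if it had at least 1000 UMIs, less than 10% of them from mitochondrial genes, at least 1 UMI of the CD3 genes Cd3d, Cd3e and Cd3g, at least 1 UMI of Cd4, no UMI of Cd8a, Cd8b1, Foxp3 or Nt5e, no more than 1 UMI of the B-cell gene Cd79a, and at least 1 UMI of Eomes. This gave 340 Eomes+ CD4 cells of 26947 cells in all, with 54, 145 and 141 cells in replicates 1, 2 and 3. Each of the 3 libraries held live CD45+ (white blood) cells from pancreatic islets of wild-type female NOD mice, a strain that develops autoimmune diabetes, without any treatment. The study's methods give an age of 15 to 16 weeks and 2 to 3 pooled mice per library, so each library is a biological replicate of its own mice, and they name independent experiments without saying which library belongs to which. The Eomes+ CD4 cells were set beside 3 groups of the same libraries, all of them without a UMI of Foxp3 or Nt5e. The Nt5e limit on these groups was set here, to match the Eomes+ CD4 cells. These were 4387 Eomes- CD4 cells (614, 1532 and 2241), 862 Eomes+ CD8 cells (172, 303 and 387), which had at least 2 UMIs of Cd8a and Cd8b1 together and none of Cd4, and 2024 Eomes- CD8 cells (305, 780 and 939).

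Eomesodermin is best known from CD8 T cells and natural killer (NK) cells, where it works together with its relative T-bet on the genes of killing and of long-term survival. CD4 T cells are mostly helper cells. Some of them take up a cytotoxic program with granzymes, perforin and the chemokine CCL5, and some, known as type 1 regulatory (Tr1) cells, make interleukin-10 without the regulatory T-cell factor FOXP3. Eomes expression has been described in both kinds.

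An Eomes UMI was found in 8.08%, 8.65% and 5.92% of the CD4 cells without Foxp3 or Nt5e in replicates 1, 2 and 3 (7.55% ± 1.44, SD, n = 3). In the CD8 cells the share was 36.1%, 28.0% and 29.2% (31.1% ± 4.36), and every CD8 value was above every CD4 value. B cells, defined by at least 2 Cd79a UMIs and no CD3 UMI, should lack Eomes and had it in 0.416% ± 0.282 of 4326 cells, at median depths of 4146, 6665 and 5744.5 UMIs per cell. CD4 cells with a Foxp3 UMI carried Eomes in 4.18% ± 1.93 of cells and CD4 cells with an Nt5e UMI in 4.83% ± 1.16, and both were left out of the groups described here. Detection depends on depth. When each cell was thinned to 2000 UMIs before it was classified, the shares were 4.36% ± 1.12 in CD4 cells, 18.7% ± 4.59 in CD8 cells and 0.177% ± 0.122 in B cells.

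**Figure D1:**
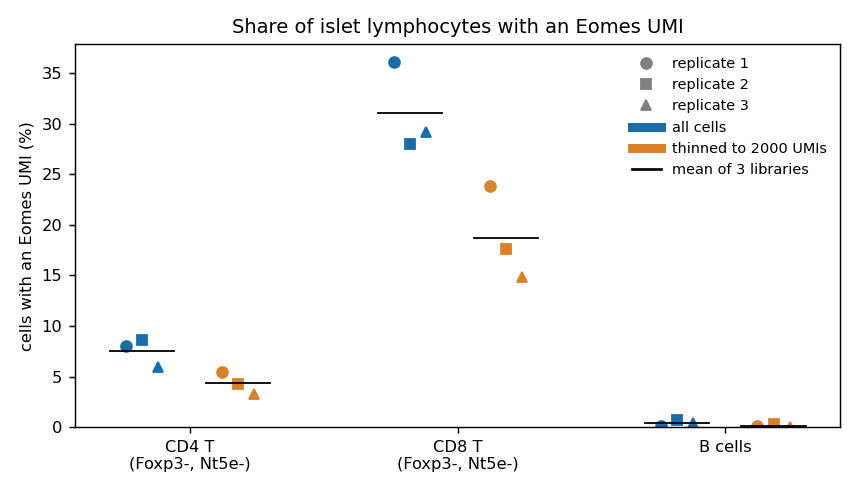
Share of cells with an Eomes UMI (vertical axis, %) among CD4 T cells, CD8 T cells and B cells, 1 point per library, with all UMIs (blue) and after thinning to 2000 UMIs per cell (orange); horizontal lines are means of 3 libraries. The CD4 points lie between the B cells, which are close to 0, and the CD8 cells at both depths.

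Of the 340 Eomes+ CD4 cells, 135 had a single Eomes UMI and so lay just inside the rule, 117 had 2 to 3 and 88 had 4 or more; the cells just outside are the Eomes- CD4 cells, with none. Both marker genes of the rule were present in each cell by construction, and 198 of the 340 cells (58.2%) had at least 2 Cd4 UMIs. The Cd4 UMI was not specific to CD4 cells in every case. Among T cells with at least 2 CD8 UMIs, 322 of 3568 (9.02%) also had a Cd4 UMI, and among those with Eomes it was 105 of 1069 (9.82%). In B cells the share was 45 of 4326 (1.04%). A further 597 of 2442 Eomes+ T cells had neither a Cd4 nor a CD8 UMI and belong to no group.

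Replicate 1 stood apart from replicates 2 and 3 before any comparison. Its cells were shallower, with a median of 4230 UMIs per cell against 6415 and 5521, and the Eomes+ CD4 cells followed, with medians of 3686, 6700 and 6415 UMIs. Eomes- CD4 cells had 3846.5, 5826.5 and 5070 UMIs and Eomes+ CD8 cells 5145.5, 8099 and 6983. In replicate 1 the cell cycle gene Stmn1 was higher (443 counts per 1000000 UMIs, CPM, in the Eomes+ CD4 cells against 83.6 and 44.8) and the interferon-induced gene Ifit3 lower (6.42 against 17.2 and 52.5 CPM), and this held for the other groups too. Few cell barcodes occurred in more than 1 library, with 12 shared by replicates 1 and 2, 18 by replicates 1 and 3, and 29 by replicates 2 and 3. Ribosomal protein genes took a median of 22.9%, 23.4% and 24.9% of the UMIs of an Eomes+ CD4 cell, below the 28.1%, 35.8% and 35.6% of Eomes- CD4 cells. A doublet caller marked 1 of 54, 18 of 145 and 18 of 141 Eomes+ CD4 cells (1.85%, 12.4% and 12.8%), against 2.77%, 1.83% and 3.39% of Eomes- CD4 cells. Without the marked cells, the calls lost among the genes described below were those of Ifit1 (-0.67), Trdc (1.72) and Pvrig (2.78) against Eomes- CD4 cells, of Btla (1.32) and Tubb5 (-0.59) against Eomes+ CD8 cells, and of Dnase1l3 (4.89), Fos (1.14), Ifi27l2a (-0.99) and Tyrobp (3.93) in the test of whether the Eomes difference was unequal in CD4 and CD8 cells.

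For each library the UMIs of a group were summed. The Eomes+ CD4 sums held 311573, 1159752 and 1160899 UMIs, so that replicate 1 carries the largest counting error. Levels are given in CPM of the sum, and differences as log2 fold changes from a quasi-likelihood test in edgeR, in which each library was a block. Their standard error (SE) was taken as the size of the log2 fold change divided by the square root of the test's F statistic. It draws on the fit to all 12 sums and is not the spread between libraries of the groups compared. A gene was called at a Benjamini-Hochberg adjusted p under 0.05 over 9900 genes. The 10 genes that define the groups were left out of the test. A summed level cannot tell more positive cells from more RNA per cell, so shares of positive cells are given where they help. Counting intervals, and shares of cells pooled over libraries, cover counting error only. Where a share is given with an SD, the SD is the spread between the 3 libraries.

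The Eomes+ CD4 cells differed from the Eomes- CD4 cells of the same islets by a cytotoxic and chemokine program, by checkpoint and Tr1-linked genes that were higher, and by naive and memory genes that were lower. Of 9900 genes, 634 (6.4%) were higher and 705 (7.12%) lower. Without replicate 2 the total of 1339 fell to 470 and without replicate 3 to 481, while it was 1711 without replicate 1. The median log2 fold change over all genes was -0.00072. Every Eomes+ library was above every Eomes- library in 15.9% of the 9900 genes and below in 5.71%, which is the background for each statement on overlap between these groups.

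Among the genes with a mean of at least 50 CPM in the higher group, the 3 largest rises were those of Phactr3, Irx3 and Ret. These genes passed that limit through the Eomes+ cells alone, so their low level in the Eomes- cells is part of how they were chosen. Phactr3, which encodes a regulator of protein phosphatase 1 and actin, stood at 48.1, 130 and 31.9 CPM in the Eomes+ CD4 cells of replicates 1, 2 and 3 and at 0, 1.01 and 0.837 CPM in the Eomes- CD4 cells (log2 fold change 6.16 ± 0.41 SE, adjusted p = 1.6e-07). Irx3, a homeobox transcription factor gene of the Iroquois family, had 196, 146 and 74.9 CPM against 5.56, 1.72 and 0.38 CPM (6.04 ± 0.44, adjusted p = 4.2e-07). Ret, the receptor tyrosine kinase for ligands of the GDNF family, had 32.1, 135 and 68.1 CPM against 1.96, 2.23 and 1.98 CPM (5.25 ± 0.36). In all 3 genes the lowest Eomes+ library was above the highest Eomes- library, with replicate 2 highest for Phactr3 and Ret and replicate 1 for Irx3. On GRCm38, Phactr3 lies at chr2:178118975-178338492, Irx3 at chr8:91798525-91802067 and Ret at chr6:118151745-118197718. Irx3 was detected in 89 of 340 Eomes+ cells and 20 of 4387 Eomes- cells, Phactr3 in 57 and 6, and Ret in 79 and 34, and among 4326 B cells in 1, 0 and 18 cells.

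Klre1, an NK-type lectin receptor gene, had 109, 69.8 and 23.3 CPM against 1.96, 2.33 and 1.67 CPM (4.61 ± 0.50). Setbp1, which encodes a nuclear protein that binds the SET protein, had 44.9, 87.9 and 33.6 CPM against 6.22, 3.75 and 3.5 CPM (3.63 ± 0.32). Dnase1l3, the gene of a secreted DNase that digests chromatin, had 96.3, 78.5 and 51.7 CPM against 14.7, 3.95 and 4.18 CPM (3.45 ± 0.41). For these genes too the groups did not overlap. Slamf7, a receptor of the SLAM family, had 67.4, 24.1 and 68.1 CPM against 13.4, 2.63 and 4.64 CPM (3.07 ± 0.36), again without overlap. Xcl1, the chemokine that draws cross-presenting dendritic cells, had 183, 131 and 22.4 CPM against 41.9, 1.82 and 3.35 CPM (3.54 ± 0.75), so that replicate 3 of the Eomes+ cells lay below replicate 1 of the Eomes- cells. With the study's own limits on cells, which remove cells with 6000 or more UMIs, Xcl1 was not called (1.66, adjusted p = 0.17).

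**Figure D2:**
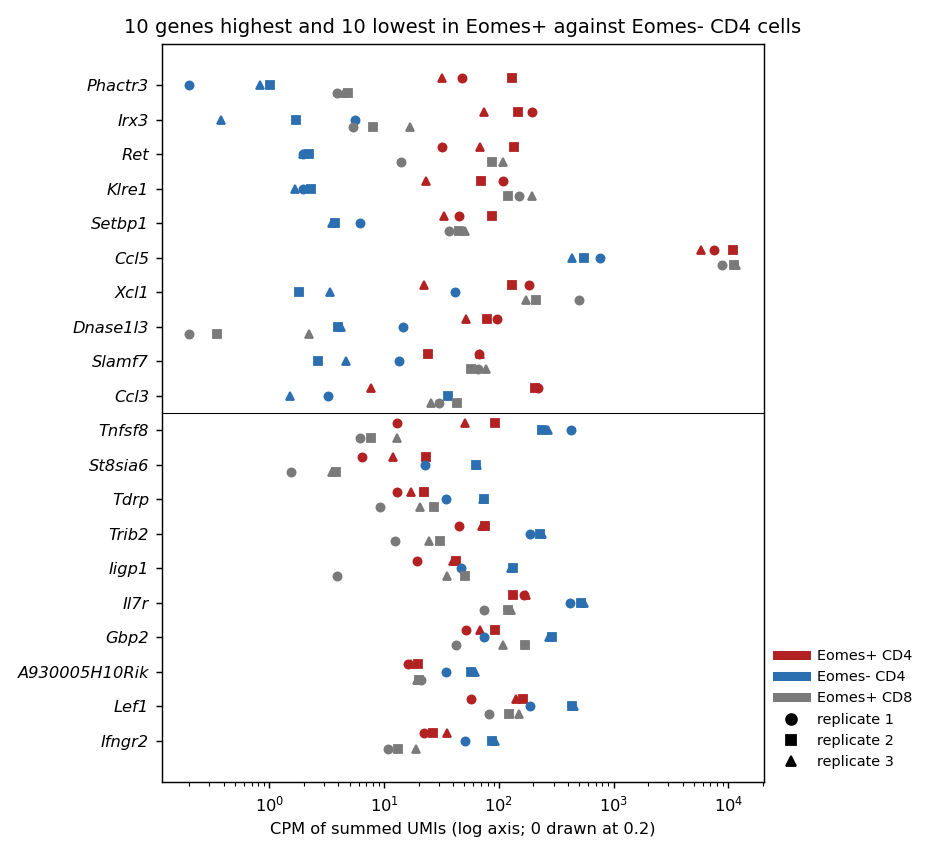
Levels (CPM of summed UMIs, log axis, values of 0 drawn at 0.2) of the 10 genes with the largest rise, above the line, and the 10 with the largest fall in Eomes+ CD4 (red) against Eomes- CD4 cells (blue), with Eomes+ CD8 cells (grey); shapes are replicates. The genes were chosen for these differences, among genes with a mean of at least 50 CPM in the higher group. For 8 of the 10 genes above the line the red points all lie to the right of the blue ones, with overlaps in Xcl1 and Ccl3, while below the line the grey points often lie near the red ones.

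Genes of killing rose together. Of 18 cytotoxic genes 17 could be tested, and 13 of them were higher, 1 lower and 3 not called, with a median log2 fold change of 2.74. Ccl5, the chemokine RANTES, stood at 7449, 11109 and 5784 CPM in the Eomes+ CD4 cells and at 764, 549 and 432 CPM in the Eomes- CD4 cells (3.62 ± 0.21 SE, adjusted p = 6.0e-08). Gzmk, the gene of granzyme K, had 199, 353 and 337 CPM against 36.6, 38.7 and 43.5 CPM (2.74 ± 0.14, adjusted p = 2.7e-08), and Nkg7, a protein of cytotoxic granules, had 831, 746 and 398 CPM against 174, 62.3 and 48.9 CPM (2.82 ± 0.21). None of these 3 genes had an Eomes+ library within the range of the Eomes- libraries. A Ccl5 UMI was present in 78.7% ± 2.39 of Eomes+ CD4 cells and 19.3% ± 1.43 of Eomes- CD4 cells, beside 8.94% ± 2.25 of B cells. For Gzmk the shares were 62.1% ± 10.6, 8.80% ± 0.912 and 0.474% ± 0.303.

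Perforin, which opens the target membrane, followed the same pattern. Prf1 had 77.0, 71.6 and 33.6 CPM in the Eomes+ and 6.54, 7.59 and 6.47 CPM in the Eomes- CD4 cells (2.80 ± 0.27). Klrd1 (CD94; 2.74 ± 0.15), Klrk1 (NKG2D; 2.77 ± 0.36) and the adhesion receptor gene Crtam (3.06 ± 0.48) rose by similar amounts. These 3 genes are also listed among the CD8 lineage genes, all 4 of whose tested members were higher. Granzyme B was much less evenly raised. Gzmb had 9.63, 52.6 and 35.3 CPM against 24.9, 4.35 and 7.45 CPM, so that the groups overlapped in replicate 1 (1.95 ± 0.50, adjusted p = 0.015), and it was not called without replicate 2 (1.09), without replicate 3 (1.80) or with DESeq2 (1.51). Gzma, Gzmm and Klrg1 were not called. Srgn, which encodes the proteoglycan core of the granules, was lower (-0.49 ± 0.09).

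Ccl3 and Ccl4, inflammatory chemokines, were higher on average but carried by few cells. Ccl4 had 571, 473 and 54.3 CPM in the Eomes+ CD4 cells and 9.16, 98.3 and 13.2 CPM in the Eomes- CD4 cells (2.82 ± 0.58, adjusted p = 0.0036), and 361 of its 789 UMIs came from 1 cell of the 48 that had any. Ccl3 had 221, 207 and 7.75 CPM against 3.27, 35.7 and 1.52 CPM (3.00 ± 0.58), with 121 of 318 UMIs in 1 cell. In both genes replicate 3 of the Eomes+ cells lay within the range of the Eomes- libraries. Ccl4 was not called when Eomes+ was set from 2 UMIs (1.51) or Cd4 from 2 UMIs (1.76). Cst7 was not called without replicate 2 (0.82), nor were Fasl (0.65) and Ctsw (0.73); Ctsw was also not called without replicate 3 (0.64).

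Short stretches of promoter sequence are shown for the granule and chemokine genes in which the letters TCACACC, or their reverse complement GGTGTGA, occur, since T-box factors are known to bind such letters. Promoters are RefSeq windows from 250 bases before to 50 bases after the gene start on GRCm38.p6, and either strand was searched. Each stretch has 10 bases on each side of the match, which is in capitals.
Gzmk, chr13:113181024-113181050, minus strand: tgaaaccttgGGTGTGAaaaatctaac
Nkg7, chr7:43437115-43437141, plus strand: gggtagggaaGGTGTGAgaagaatcag
Gzmm, chr10:79693627-79693653, plus strand: gcagctcttgGGTGTGAccgcatatgc
Xcl1, chr1:164935694-164935720, minus strand: gtctcatgttGGTGTGAacaaggcaaa
The first capital lay at -75 from the start in Gzmk, -13 in Nkg7, -189 in Gzmm and -188 in Xcl1. The letters were in 3 of 12 cytotoxic genes with a promoter window and in 1307 of all 32851 promoters (3.98%). They were in 1 of 5 genes with the largest rise and 0 of 8 with the largest fall. A gene was counted if any of its windows held the letters, while the 32851 promoters were counted singly. The shares of genes and of promoters are therefore not in the same unit. Gzmm, whose promoter held them, was not called, while the windows of Prf1, Irx3 and Klre1 did not hold them. Ccl5, Ccl4, Crtam, Ctsw, Klrd1 and Klrg1 of the list had no promoter window under their names and were not searched. The same held for Dnase1l3, Phactr3, Ret and Setbp1 of the rises, and for Iigp1 and Tdrp of the falls. A match is a string of letters in a window and no measure of binding.

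Inhibitory receptors and their transcription factors were also higher. Of 14 tested checkpoint genes 8 were higher, none was lower and 6 were not called, with a median log2 fold change of 1.10. Lag3, an inhibitory receptor for MHC class II, had 343, 425 and 202 CPM in the Eomes+ CD4 cells and 89.3, 66.1 and 42.8 CPM in the Eomes- CD4 cells (2.15 ± 0.24, adjusted p = 2.1e-05). Nr4a2, a nuclear receptor induced by T-cell receptor signals, had 536, 459 and 264 CPM against 179, 56.7 and 59.2 CPM (2.16 ± 0.25). Entpd1 (CD39), which degrades extracellular ATP, had 70.6, 107 and 47.4 CPM against 18.6, 14.7 and 11.2 CPM (2.22 ± 0.27). The groups of these genes did not overlap, and all 3 were called in each fit without 1 library. Havcr2 (TIM3) had 73.8, 85.4 and 149 CPM against 47.4, 21.8 and 26.4 CPM (1.76 ± 0.30) and was not called without replicate 3 (1.24).

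Pdcd1, the gene of PD-1, showed where the replicates part. It had 167, 454 and 506 CPM in the Eomes+ CD4 cells and 135, 146 and 148 CPM in the Eomes- CD4 cells (1.29 ± 0.28, adjusted p = 0.0046). The Eomes+ values were above all the Eomes- values, but by little in replicate 1, and the gene was not called without replicate 2 (1.16) or replicate 3 (1.06), or with DESeq2 (1.21). Tox (0.70 ± 0.21) and Tox2 (1.46 ± 0.31), transcription factors of chronically stimulated T cells, were called with all libraries but not without replicate 2 (0.60 and 1.37) or replicate 3 (0.63 and 1.04). Ctla4 had 250, 285 and 231 CPM against 370, 211 and 193 CPM and was not called (-0.08 ± 0.17). Cd160, Btla, Cd200, Nr4a1 and Nr4a3 were not called either.

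Of the 4 genes of the TIGIT axis 2 were higher and 1 lower, with a median of 0.39. TIGIT and CD226 compete for the ligand CD155, the first as an inhibitory and the second as a costimulatory receptor. Tigit had 48.1, 40.5 and 25.0 CPM in the Eomes+ CD4 cells and 32.1, 17.7 and 9.58 CPM in the Eomes- CD4 cells (0.91 ± 0.28, adjusted p = 0.042). Cd226 had 6.42, 6.90 and 5.17 CPM against 14.4, 9.72 and 10.8 CPM (-1.0 ± 0.32, adjusted p = 0.049). Tigit was the higher in each library and Cd226 the lower, Cd226 without overlap, but both calls were near the threshold. Tigit was not called without replicate 2 (0.82) or replicate 3 (0.78), and Cd226 was not called without replicate 1 (-0.97), replicate 2 (-1.25) or replicate 3 (-0.82), with DESeq2 (-0.99) or with another normalization (-0.99). The Cd226 value rests on 16 UMIs in 10 of 340 Eomes+ CD4 cells, and Tigit was detected in 76 of them. Pvrig, an inhibitory receptor for CD112, was higher (2.82 ± 0.88) on 14 UMIs and was not called without replicate 3 (3.40); Cd96 was not called.

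Genes linked to Tr1 cells were partly raised. Of 12 tested genes 7 were higher, none was lower and 5 were not called, with a median of 1.03; Gzmk and Lag3 of this list are described above. Il10 had 48.1, 48.3 and 19.0 CPM in the Eomes+ CD4 cells and 17.7, 14.6 and 15.3 CPM in the Eomes- CD4 cells, without overlap (0.98 ± 0.27, adjusted p = 0.025). An Il10 UMI was found in 35 of 340 and 141 of 4387 cells, and 25 of the 93 UMIs came from 1 cell. The call was lost without replicate 1 (0.91) and without replicate 2 (0.57), and when Eomes+ or Cd4 was set from 2 UMIs (0.57 and 0.67), and with DESeq2 (0.96). Prdm1, the gene of the repressor BLIMP1, had 73.8, 96.6 and 50.8 CPM against 21.3, 16.7 and 16 CPM and kept its call in each of these settings (1.89 ± 0.23, adjusted p = 4.4e-05).

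Maf, a transcription factor of interleukin-10 and interleukin-21 production, had 376, 648 and 507 CPM in the Eomes+ CD4 cells and 327, 196 and 173 CPM in the Eomes- CD4 cells (1.04 ± 0.20, adjusted p = 0.0020). The groups did not overlap, but replicate 1 showed a small step, and Maf was not called without replicate 2 (0.74) or replicate 3 (0.85). Il21, a helper cytokine, had 22.5, 32.8 and 6.03 CPM against 10.5, 5.47 and 3.50 CPM (1.59 ± 0.43), which rests on 52 UMIs in 15 cells and was not called without replicate 2 (0.75). Ahr, Irf4, Batf, Il10ra and Ctla4 were not called.

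**Figure D3:**
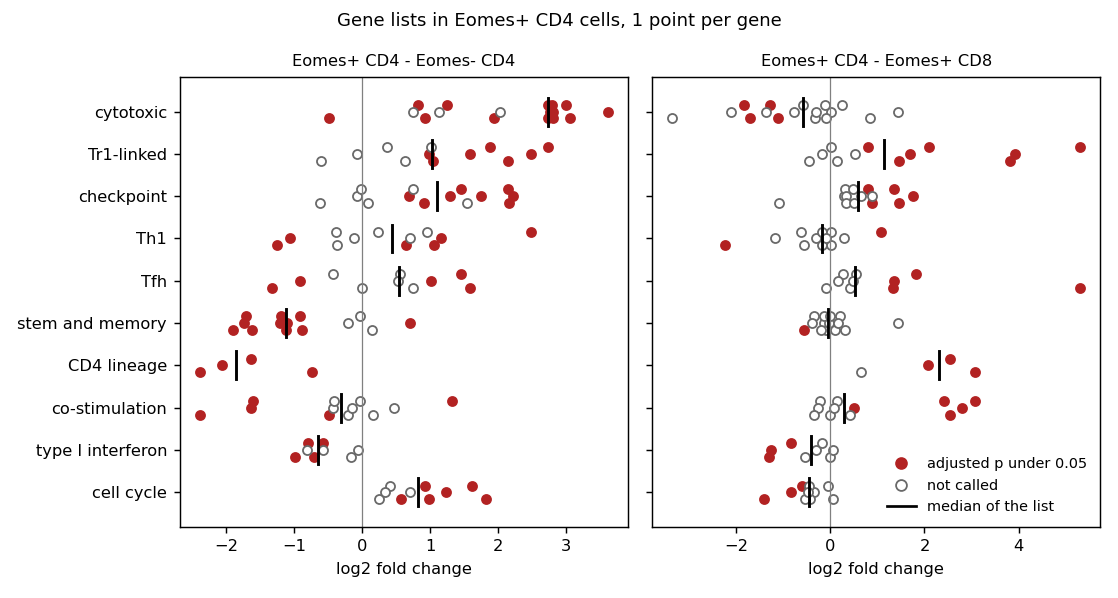
Log2 fold changes of the genes of 10 lists (1 point per gene) in Eomes+ CD4 cells against Eomes- CD4 cells (left) and against Eomes+ CD8 cells (right); filled points passed an adjusted p under 0.05 and the bar is the median of the list. The cytotoxic list lies to the right of 0 on the left side (median 2.74) and to the left of 0 on the right side (median -0.59), while the Tr1-linked list lies to the right on both (1.03 and 1.13).

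Th1 genes were divided. Of 12 tested, 4 were higher, 2 lower and 6 not called, with a median of 0.44. Among those higher were Id2, Il2rb and Runx3, by 1.16, 1.05 and 0.64. Il2rb was not called without replicate 2 (0.71), and Runx3 was not called without replicate 2 (0.57) or replicate 3 (0.47). Tbx21, the gene of T-bet, had 22.5, 15.5 and 7.75 CPM against 15.4, 3.54 and 5.25 CPM and was not called (0.95 ± 0.34, adjusted p = 0.078). Ifng, the main Th1 cytokine gene, had 57.8, 60.4 and 37.0 CPM against 46.5, 25.7 and 21.3 CPM and was not called either (0.71 ± 0.27, adjusted p = 0.098). Il18r1 (-1.26 ± 0.17) and Il12rb2 (-1.07 ± 0.32), receptors for cytokines that drive Th1 cells, were lower, the latter not without replicate 1 (-1.07) or replicate 3 (-0.43).

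Genes of naive and memory cells fell. Of 14 stem and memory genes 10 were lower, 1 higher and 3 not called, with a median of -1.12. Il7r, the receptor of the survival cytokine interleukin-7, had 167, 134 and 171 CPM in the Eomes+ CD4 cells and 417, 522 and 555 CPM in the Eomes- CD4 cells (-1.90 ± 0.15, adjusted p = 1.1e-06). Lef1, a partner of TCF1, had 57.8, 163 and 140 CPM against 185, 432 and 457 CPM (-1.74 ± 0.14, adjusted p = 8.8e-07). Klf2 and its target S1pr1, the receptor with which T cells leave tissue, fell by 1.62 and 1.71 on the log2 scale. No Eomes+ library reached the range of the Eomes- libraries in any of these 4 genes.

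Tcf7, which encodes TCF1, fell less. It had 125, 119 and 87.0 CPM against 200, 171 and 158 CPM (-0.89 ± 0.12, adjusted p = 0.00017), and a Tcf7 UMI was still found in 32.9% ± 6.34 of Eomes+ CD4 cells, against 49.2% ± 3.9 of Eomes- CD4 cells and 1.05% ± 0.422 of B cells. Slamf6 (-0.92), Ccr7 (-1.12), Satb1 (-1.21) and Bach2 (-1.11) were also lower, Bach2 not without replicate 2 (-0.85) or replicate 3 (-0.90). Cd27, a costimulatory receptor of memory cells, was the exception. It had 613, 775 and 760 CPM against 424, 375 and 371 CPM and was higher without overlap (0.70 ± 0.11, adjusted p = 0.00032).

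The CD4 lineage genes that could be tested were lower as well, all 4 of them, with a median of -1.85. Zbtb7b, which is also on that list, had 7 UMIs in the Eomes+ CD4 cells and was not tested. Of 12 costimulation and activation genes 4 were lower, 1 was higher and 7 were not called (median -0.31). Cd40lg and Tnfsf8 belong to both lists. Tnfsf8 (CD30 ligand) had 12.8, 92.3 and 50.8 CPM in the Eomes+ CD4 cells and 424, 236 and 266 CPM in the Eomes- CD4 cells (-2.39 ± 0.28, adjusted p = 3.6e-05). Tnfsf11, which encodes RANKL, had 16, 16.4 and 23.3 CPM against 117, 44.0 and 40.3 CPM (-1.61 ± 0.23), and Cd40lg, the ligand with which helper cells license B cells and dendritic cells, had 6.42, 7.76 and 5.17 CPM against 25.5, 13.3 and 20.1 CPM (-1.65 ± 0.30). The groups did not overlap in these genes. Cd40lg was not called without replicate 3 (-1.30), and Gata3 (-0.74 ± 0.17) not without replicate 2 (-0.81) or replicate 3 (-0.93). Tnfrsf9 (4-1BB), a receptor induced by recent stimulation, was higher (1.33 ± 0.21), while Tnfrsf4 (OX40), Icos and Cd28 were not called.

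Among genes with a mean of at least 50 CPM in the higher group, the largest falls also included St8sia6 (-2.06 ± 0.20), Tdrp (-2.05 ± 0.17) and Trib2 (-1.92 ± 0.13). St8sia6 is a sialyltransferase gene that is also one of the CD4 lineage genes, and Trib2 encodes a pseudokinase. The non-coding transcript A930005H10Rik (-1.81 ± 0.21) was another. Ifngr2, a chain of the interferon-γ receptor, had 22.5, 26.7 and 35.3 CPM against 50.4, 87.4 and 92.6 CPM without overlap (-1.72 ± 0.16, adjusted p = 5.6e-06). The GTPase genes Iigp1 (-1.92 ± 0.22) and Gbp2 (-1.87 ± 0.19) are induced by interferon-γ, and for Gbp2 the highest Eomes+ library, 92.3 CPM, lay above the lowest Eomes- library, 73.9 CPM. Of 8 genes induced by type I interferon 4 were lower and none higher (median -0.65). Ifi27l2a had 886, 968 and 1254 CPM against 2169, 1651 and 1618 CPM (-0.99 ± 0.15). Irf7 (-0.57) and Ifit1 (-0.72) were not called without replicate 2 (-0.49 and -0.26) or replicate 3 (-0.53 and -1.20).

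Follicular helper, migration and other helper genes gave no single direction. Of 10 follicular helper genes 3 were higher and 2 lower (median 0.54), with Cxcr5 at 12.8, 17.2 and 14.6 CPM against 10.8, 6.28 and 5.86 CPM (1.01 ± 0.32, adjusted p = 0.046). Cxcr5 was not called without replicate 2 (0.79) or replicate 3 (0.94), and Bcl6, the factor of these cells, was not called (0.56 ± 0.24). Of 15 migration genes 3 were higher and 4 lower. Cxcr6, a receptor of T cells resident in tissue, had 234, 304 and 308 CPM against 102, 96.4 and 99.6 CPM without overlap (1.36 ± 0.21, adjusted p = 0.00031), and Cxcr3 was not called (-0.38 ± 0.23). Rgs1 was higher (0.95 ± 0.22) but not without replicate 2 (0.58) or replicate 3 (0.76), and Itgb1 was lower (-0.55 ± 0.17) but not without replicate 2 (-0.68) or replicate 3 (-0.59).

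Of 4 tested Th2 and Th17 genes Gata3 and Il1rl1 were lower and none was higher. Il4, Il5, Il13 and Il17a had no UMI in the Eomes+ CD4 cells, which at this depth allows up to 3 UMIs in 340 cells, and Il1rl1, the receptor of interleukin-33, had 1 UMI against 161 in the Eomes- CD4 cells (ratio of levels 0.0615, 95% counting interval 0.00155 to 0.348); its call was lost without replicate 3. Of 8 regulatory T-cell genes other than Foxp3, Capg was higher (0.61) and Tnfrsf18 lower (-0.49), neither of them without replicate 2 (0.41 and -0.46) and Capg not without replicate 3 (0.47). Il2ra and Ikzf2 were not called. Of 8 anergy genes Izumo1r (-1.32) and Dgka (-0.80) were lower, and of 9 early genes of T-cell receptor signalling only Nr4a2 was called.

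Cell cycle genes were higher in 6 of 10 cases and lower in none (median 0.82). Mki67, a marker of cycling cells, had 99.5, 77.6 and 26.7 CPM in the Eomes+ and 73.6, 6.28 and 8.06 CPM in the Eomes- CD4 cells, which overlapped (1.82 ± 0.39, adjusted p = 0.0051). The 152 UMIs came from 19 of 340 cells, and 60 of them from 1 cell. Mki67 was not called without replicate 2 (0.85) or with the study's limits on cells (0.57). Top2a (1.24 ± 0.20) and Pcna (0.57 ± 0.12) were higher too, Pcna not without replicate 2 (0.45).

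Set beside Eomes+ CD8 cells of the same islets, the Eomes+ CD4 cells had lower levels of the receptor genes Klrc1, Klrc2, Klrd1, Klre1 and Klrk1 and of Gzmb and higher levels of Maf, Il10, Lag3 and Tnfrsf4, while Gzmk and Prf1 were not called. Of 9900 genes, 389 (3.93%) were higher and 366 (3.7%) lower in the CD4 cells. Without replicate 2 the total of 755 fell to 218, without replicate 3 to 160 and with the study's limits on cells to 182, and it was 965 without replicate 1. The CD4 libraries were all above the CD8 libraries in 14.3% of the genes and all below in 3.75%. This comparison and the one above share the Eomes+ CD4 sums.

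No cytotoxic gene was higher than in the CD8 cells, 4 were lower and 13 were not called, with a median of -0.59. Gzmk had 199, 353 and 337 CPM in CD4 and 191, 310 and 292 CPM in CD8 cells (0.01 ± 0.13), Prf1 77.0, 71.6 and 33.6 against 43.3, 59.1 and 50.7 CPM (-0.09 ± 0.24) and Ccl5 7449, 11109 and 5784 against 8890, 11151 and 11800 CPM (-0.59 ± 0.19, adjusted p = 0.086). The groups overlapped in all 3 genes, and a p above the threshold does not show that the levels were equal. Gzmb was lower in the CD4 cells, with 9.63, 52.6 and 35.3 against 171, 120 and 87.4 CPM (-1.71 ± 0.40, adjusted p = 0.014), without overlap, although it was not called without replicate 3 (-1.86) or with DESeq2 (-1.95). Ctsw, a cathepsin of cytotoxic cells, was lower as well (-1.28 ± 0.16).

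The 10 genes furthest below the CD8 level were ranked among genes with a mean of at least 50 CPM in the higher group. They included Klrc1, Klrc2, Klrk1 and Klre1, which encode NK-type lectin receptors, and Trgv2 and Tcrg-C2 of the γ chain of the T-cell receptor. Klrc1, which encodes the inhibitory receptor NKG2A, had 12.8, 14.7 and 25.0 CPM in Eomes+ CD4 and 132, 186 and 217 CPM in Eomes+ CD8 cells (-3.45 ± 0.23, adjusted p = 3.7e-07). Klrc2 (-3.10 ± 0.26), Klrk1 (-1.83 ± 0.28), Klre1 (-1.59 ± 0.32) and Klrd1 (-1.12 ± 0.13) were lower too, and the groups did not overlap in any of the 5 genes. All of them but Klrd1 were named for the size of this difference. Klrd1 was not called with the study's limits on cells (-0.58). Klre1 and Klrk1 were not called without replicate 3 (-0.81 and -1.17). Klrc1 and Klrc2 are near-identical copies, as are the γ constant genes, so that reads can be split between them. Tcrg-C2 had 19.3, 7.76 and 13.8 against 91.2, 21.2 and 68.5 CPM (-2.23 ± 0.36) and Trgv2 was lower by a like amount (-2.45 ± 0.45), though not called without replicate 3 (-2.10). Ctla2a, a protease inhibitor gene, had 302, 263 and 274 against 834, 1065 and 1230 CPM (-2.09 ± 0.11, adjusted p = 7.4e-08). Hopx, a homeodomain gene of effector cells, was at 6.42, 14.7 and 17.2 against 74.2, 59.8 and 65.7 CPM (-2.24 ± 0.33), and was not called with the study's limits on cells (-1.42). Gm19585, a gene without an assigned function here, had a log2 fold change of -1.54 ± 0.22 and was not called with the study's limits on cells (-1.20).

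Among the genes above the CD8 level Maf came with tight replicates, at 376, 648 and 507 CPM against 24.0, 35.8 and 35.1 CPM (3.82 ± 0.24, adjusted p = 2.9e-07). A Maf UMI was found in 72.4% ± 4.88 of Eomes+ CD4 and 12.6% ± 2.86 of Eomes+ CD8 cells, beside 2.68% ± 0.238 of B cells. Dnase1l3 had 96.3, 78.5 and 51.7 against 0, 0.348 and 2.23 CPM (5.85 ± 0.64), Phactr3 48.1, 130 and 31.9 against 3.86, 4.87 and 4.46 CPM (3.73 ± 0.39) and Irx3 196, 146 and 74.9 against 5.41, 8.0 and 16.9 CPM (3.27 ± 0.40). The values of these 4 genes did not overlap between the groups. Ret, in contrast, had 13.9, 86.9 and 108 CPM in the CD8 cells and was not called (-0.03 ± 0.26). The gene 1700019D03Rik, which has no established function, was higher by 3.47 ± 0.30.

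Spp1, which encodes osteopontin, had 276, 156 and 2.58 CPM in the Eomes+ CD4 cells and 2.32, 0 and 0 CPM in the Eomes+ CD8 cells. The counts were 270 UMIs against 3, a ratio of levels of 250 with a 95% counting interval of 84.6 to 1219 (edgeR adjusted p = 0.00020), and 28 of the 340 cells held them. Replicate 3 of the CD4 cells had hardly any. Ifitm2, Ifitm3, Il1r2 and Tyrobp, which the same rule of size names, also came from few cells. Tyrobp had similar levels in the 3 libraries, but its 222 UMIs came from 24 cells, and the 168 UMIs of Il1r2 from 19. Ifitm3, an antiviral membrane protein gene, had 144, 59.5 and 137 against 20.9, 10.1 and 10.2 CPM (2.97 ± 0.28), but its 273 UMIs came from 15 cells, and Ifitm2 (3.99 ± 0.56) had 295 UMIs in 25 cells, 103 of them in 1 cell, and was not called with the study's limits on cells (2.71). Il1r2, the decoy receptor of interleukin-1, had 44.9, 3.45 and 129 against 3.09, 1.04 and 6.38 CPM (3.83 ± 0.60) and was not called without replicate 3 (2.87).

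Of 12 Tr1-linked genes 7 were higher than in the CD8 cells and none lower, with a median of 1.13. Il10 had 48.1, 48.3 and 19.0 against 3.09, 3.13 and 0.638 CPM (3.92 ± 0.43, adjusted p = 8.8e-05), Lag3 343, 425 and 202 against 64.2, 119 and 106 CPM (1.46 ± 0.24) and Prdm1 73.8, 96.6 and 50.8 against 34.0, 13.9 and 19.4 CPM (1.70 ± 0.25). In none of these genes did the groups overlap. Il21 had 52 UMIs against 3 (ratio of levels 48.1, 95% counting interval 15.6 to 241), Ahr was higher by 2.10 and Ctla4 by 0.81, but Ahr was not called without replicate 3 (1.69) and Ctla4 not without replicate 2 (0.75) or replicate 3 (0.78). Of 14 checkpoint genes 5 were higher and none lower (median 0.58), with Pdcd1 (0.30), Tigit (0.31), Havcr2 (0.88) and Entpd1 (0.34) not called. Of the others called, Btla (1.75), Cd200 (1.35) and Nr4a2 (0.88) were not called without replicate 3 (1.32, 1.31 and 1.19), and neither were Btla (1.82) and Nr4a2 (0.31) without replicate 2.

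Of the tested CD4 lineage genes 3 of 4 were higher than in the CD8 cells, and of the costimulation genes 5 of 12. The other genes of both lists were not called. Tnfsf8 had 12.8, 92.3 and 50.8 CPM in Eomes+ CD4 cells and 6.18, 7.65 and 13.1 CPM in Eomes+ CD8 cells (2.55 ± 0.42), and Cd40lg 6.42, 7.76 and 5.17 against 0.773, 0.348 and 0.956 CPM (3.07 ± 0.59). St8sia6 was higher by 2.07 ± 0.33, but with the study's limits on cells its sign turned (-0.34). None of the 3 was called in each fit without 1 library, with 1.77 for Tnfsf8, 2.41 for Cd40lg and 1.63 for St8sia6 without replicate 2. Tnfrsf4 (OX40), a costimulatory receptor, had 382, 464 and 711 against 67.2, 76.5 and 61.2 CPM (2.79 ± 0.30, adjusted p = 8.3e-05) and was called in each of those fits. Of 10 follicular helper genes 4 were higher and none lower, among them Izumo1r (1.82) and Cxcr5 (1.34), the latter not without replicate 2 (0.80) or replicate 3 (1.68). Of 14 stem and memory genes Satb1 alone was called, with -0.56 ± 0.13, and not without replicate 2 (-0.41) or replicate 3 (-0.40). Il7r had 167, 134 and 171 CPM against 75.0, 121 and 128 CPM (0.31 ± 0.16) and Tcf7 125, 119 and 87.0 against 126, 113 and 124 CPM (-0.34 ± 0.13).

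Ifng was the Th1 gene above the CD8 level, with 57.8, 60.4 and 37.0 against 25.5, 18.4 and 23.0 CPM and no overlap (1.08 ± 0.30, adjusted p = 0.039), although it was not called without replicate 2 (0.74) or replicate 3 (1.41). Cell cycle genes Birc5, Stmn1 and Tubb5 and interferon genes Ifit3, Irf7 and Usp18 were lower in the CD4 cells. Birc5 (-1.41) was not called without replicate 1 (-1.36) or replicate 3 (-1.06), Tubb5 (-0.60) and Usp18 (-1.31) not without replicate 2 (-0.60 and -1.22) or replicate 3 (-0.54 and -1.15), Irf7 (-0.83) not without replicate 2 (-0.70) or replicate 3 (-0.88), and Ifit3 (-1.26) not without replicate 2 (-0.71). The remaining calls among migration genes were Rgs1 (1.00) and Rgs2 (0.91 ± 0.13), which were higher, and Ccr2 (-1.11) and S1pr4 (-0.82), which were lower; of these only Rgs2 was called in each fit without 1 library, Rgs1 having 0.77 and 0.90, Ccr2 -0.80 and -1.20 and S1pr4 -0.83 and -0.95 without replicates 2 and 3.

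Whether an Eomes UMI went with the same differences in CD4 and CD8 cells was tested by the difference between the CD4 step (Eomes+ against Eomes- CD4 cells) and the CD8 step (Eomes+ against Eomes- CD8 cells). The steps were unequal for 56 of 9900 genes (0.566%), 43 of them with the larger value in CD4 cells. Without replicate 1 there were 150 such genes, without replicate 2 26 and without replicate 3 12. Cytotoxic genes were 5 of the 43. Klrd1 rose by 2.74 ± 0.15 in CD4 and by 0.55 ± 0.11 in CD8 cells (difference 2.18 ± 0.18, adjusted p = 4.0e-05). The Eomes- CD8 cells had 160, 136 and 138 CPM of it and the Eomes- CD4 cells 17.7, 14.5 and 15.7 CPM. Prf1 had steps of 2.80 ± 0.27 and 0.29 ± 0.19 (difference 2.51 ± 0.33), Ccl5 of 3.62 ± 0.21 and 1.54 ± 0.20 (2.09 ± 0.27), Nkg7 of 2.82 ± 0.21 and 1.25 ± 0.20 (1.57 ± 0.28) and Gzmk of 2.74 ± 0.14 and 1.76 ± 0.13 (0.98 ± 0.19). In all 5 genes the Eomes- CD4 cells were lower than the Eomes- CD8 cells in every library. Prf1 was not called without replicate 2 (2.35), Nkg7 not without replicate 3 (1.64), and Gzmk not without replicate 2 (0.98) or replicate 3 (0.74).

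Genes outside that list with unequal steps included Bend4, which encodes a BEN domain protein, with 2.87 ± 0.18 in CD4 and 0.53 ± 0.11 in CD8 cells, Gsto1, a glutathione transferase gene, with 2.45 ± 0.15 and 0.95 ± 0.15, and Ret with 5.25 ± 0.36 and 2.24 ± 0.26. Neither Gsto1 nor Ret was called without replicate 2 (1.49 and 2.65). For Ctsz, Ccdc88a and Filip1l the steps had opposite signs, although the CD4 step of Ccdc88a was not called on its own (0.74 ± 0.25). Filip1l, which encodes a filamin A interacting protein, had 12.8, 45.7 and 41.3 CPM in Eomes+ and 17, 18.5 and 23.2 CPM in Eomes- CD4 cells, but 3.09, 5.91 and 12.1 and 16.4, 17.5 and 22.5 CPM in the CD8 cells (difference 2.17 ± 0.34), with replicate 1 of the Eomes+ CD4 cells below the Eomes- cells. It was not called without replicate 2 (1.73) or replicate 3 (2.70). Hmgb2, a chromatin protein gene that is high in cycling cells, rose by 1.04 ± 0.09 in CD8 cells and had 0.16 ± 0.10 in CD4 cells (difference -0.88 ± 0.13); it was not called without replicate 2 (-0.94) or replicate 3 (-1.03). Other listed genes with the larger value in CD8 cells were Il18r1 (-1.03), Itgb1 (-1.08) and Ifi27l2a (-0.97), and Dnase1l3 (5.05), Tyrobp (3.25) and the early response gene Fos (1.27) had the larger value in CD4 cells. None of these 6 was called in each fit without 1 library. Without replicate 3 the values were -0.73, -0.96, -1.10, 6.32, 3.56 and 1.18, none of them called. The cathepsin gene Ctsz (1.54 ± 0.22) and Ccdc88a (3.13 ± 0.47), which encodes the actin-binding protein girdin, are taken up again with the RNA of other cell types.

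**Figure D4:**
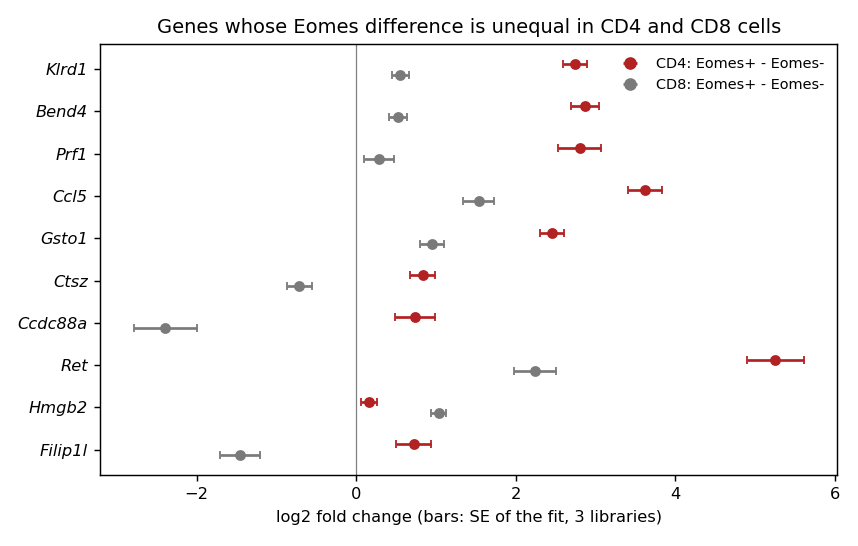
Log2 fold change that went with an Eomes UMI in CD4 cells (red) and in CD8 cells (grey) for the 10 genes with the smallest adjusted p of the difference. Bars are the SE derived from the F statistic of the fit, not the spread between libraries. For 9 of the 10 genes the red point lies to the right of the grey one, and for Hmgb2 to the left.

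The Eomes+ CD4 cells were not uniform. An Irx3 UMI was present in 89 of the 340 cells, 16 of 54, 52 of 145 and 21 of 141 in replicates 1, 2 and 3, and their median depth (5348 UMIs) was below that of the other 251 cells (6279 UMIs). Genes that rose most were unevenly spread between these cells and the rest. Phactr3 was detected in 47.2% of cells with Irx3 and 5.98% of cells without, Ret in 53.9% and 12.4%, and Areg, the gene of the growth factor amphiregulin, in 25.8% and 4.78%. These 3 genes had the higher share among Irx3 cells in each of the 3 libraries. Areg is named here after its values were seen, and 210 of its 439 UMIs came from 1 cell.

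Lag3 was found in 82.0% of cells with Irx3 and 49.0% of cells without, Pdcd1 in 82.0% and 64.1%, Maf in 89.9% and 66.9% and Ccl5 in 94.4% and 74.1%. Other Tr1-linked and TIGIT axis genes gave no such order. Il10 was found in 0 of 16, 5 of 52 and 1 of 21 cells with Irx3 and in 6 of 38, 10 of 93 and 13 of 120 cells without in replicates 1, 2 and 3. Il21 was found in 1, 0 and 2 against 2, 6 and 4 of these cells and Tigit in 4, 17 and 1 against 10, 22 and 22, too few to order the shares. Gzmk differed little, with 71.9% and 62.9%, and had 50% in both in replicate 1. Of the stem and memory genes Il7r, Slamf6, Tcf7 and S1pr1 were looked at, and they and Cxcr3, a chemokine receptor gene of Th1 cells, had the lower share among Irx3 cells. Il7r was found in 6.74% of Irx3 cells and 29.5% of the others, Slamf6 in 8.99% and 35.1%, Tcf7 in 19.1% and 40.2%, S1pr1 in 15.7% and 37.8% and Cxcr3 in 12.4% and 35.1%. The order did not hold in every library for Dnase1l3 (33.7% and 12.4%, but 18.8% and 23.7% in replicate 1) and Klre1 (30.3% and 12%, but 9.52% and 10.0% in replicate 3). When all cells were thinned to 2000 UMIs, Phactr3 was found in 27.3% and 4.83%, Lag3 in 62.1% and 32.0% and Spp1, which with all UMIs was found in 16.9% and 5.18%, in 6.06% and 5.20%. In replicate 3 the thinned shares of Pdcd1 (44.4% and 49.2%) and Gzmk (44.4% and 46.7%) had the other order, and those of Tcf7 were close (16.7% and 17.2%). Cells of 1 library share their mice and their run, and these shares are a description without a test.

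**Figure D5:**
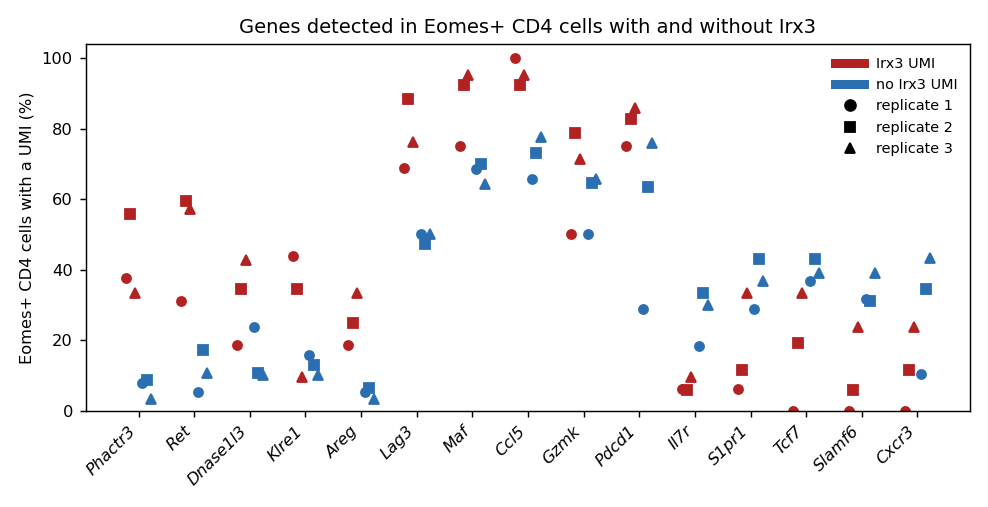
Share of Eomes+ CD4 cells with a UMI of each gene (vertical axis, %), for cells with an Irx3 UMI (red, 16, 52 and 21 cells) and without (blue, 38, 93 and 120 cells) in replicates 1, 2 and 3. With all UMIs, red points lie above blue ones in each library for Phactr3, Ret, Areg, Lag3, Maf, Ccl5 and Pdcd1, and below them for Il7r, S1pr1, Tcf7, Slamf6 and Cxcr3.

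Levels also differed along the number of Eomes UMIs, which the rule itself used, so that these values are given side by side only. Cells with 1, 2 to 3 and 4 or more Eomes UMIs had median depths of 6136, 5753 and 6560 UMIs. Mki67 stood at 13.9 ± 10.6, 31.5 ± 16.4 and 144 ± 76.8 CPM (mean ± SD of 3 libraries), with 60 of the 121 UMIs of the last value in 1 cell. Bend4 stood at 35.2 ± 9.66, 58.6 ± 28.8 and 80.4 ± 29.2 CPM, and Dnase1l3 at 31.7 ± 16.3, 81.3 ± 89.3 and 117 ± 40.9 CPM. Cxcr6 had 330 ± 6.21, 386 ± 32.3 and 151 ± 74.5 CPM, and Ccr7 445 ± 223, 276 ± 51.4 and 219 ± 79.7 CPM. Il10 had 80.1 ± 70, 37.8 ± 15.7 and 12.6 ± 11.6 CPM, with 25 of the 48 UMIs of the first value in 1 cell. Irx3 was nearly level, with 151 ± 141, 131 ± 45.3 and 152 ± 33.2 CPM.

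RNA of other cell types was present in the Eomes+ CD4 cells and moved with some results. All 5 tested NK-cell markers were higher than in Eomes- CD4 cells, and the 9 listed genes together stood at 327, 236 and 149 CPM against 73.3, 17.1 and 54.1 CPM in Eomes- CD4 cells and 196, 143 and 208 CPM in Eomes+ CD8 cells. Tyrobp, an adaptor of NK and myeloid receptors, had the most, 89.9, 87.1 and 80.1 CPM, from 222 UMIs in 24 cells. None of the 9 was at 0, and Ncr1, the receptor that defines NK cells, had 12 UMIs in 7 cells. Fcer1g had 67.4, 49.1 and 35.3 against 25.2, 9.11 and 17.8 CPM (1.41 ± 0.27) and was not called without replicate 2 (0.97), and Klra7 (3.34 ± 0.55), Klra8 (4.43 ± 0.99) and Tyrobp (1.88 ± 0.43) were not called without it either (2.55, 3.98 and 1.07). The Klra genes are near-identical copies. Against Eomes+ CD8 cells 4 of the 5 were higher, Tyrobp (2.99), Fcer1g (2.43), Klra7 (2.08, from 23 UMIs in 8 cells) and Klra8 (12 UMIs against 2, a ratio of levels of 16.7 with a 95% counting interval of 3.71 to 153), and Klre1 was lower as given above. Klra7 was not called without replicate 2 (1.38) or replicate 3 (2.18), nor was Klra8. Trdc, the constant gene of the δ chain, had 77.0, 37.9 and 11.2 against 1.96, 11.8 and 8.67 CPM (1.65 ± 0.50, adjusted p = 0.041), from 81 UMIs in 15 cells; it was not called without replicate 1 (0.98) or replicate 2 (2.04). Against Eomes+ CD8 cells Trdc was higher too (2.98), but not called without replicate 2 (3.04) or with Cd4 from 2 UMIs (1.67). The 5 NKT and γδ genes found under their listed names summed to 99.5, 40.5 and 16.4 CPM, and Sox13 was at 0. In Eomes- CD4 cells they summed to 10.1, 15.2 and 11.9 CPM. Most of the Eomes+ CD4 sum was Trdc, at a mean of 42.1 CPM. The γ constant genes Tcrg-C1, Tcrg-C2 and Tcrg-C4 were not part of the sum. They had 2, 31 and 20 UMIs in the Eomes+ CD4 cells, and Tcrg-C2 was lower than in Eomes+ CD8 cells as given above.

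A UMI of Tyrobp, Fcer1g, Ncr1 or Trdc was found in 36 of 340 Eomes+ CD4 cells (10.6%), against 3.92% of Eomes- CD4 and 3.94% of Eomes+ CD8 cells, and 12 of the 36 were marked as doublets. Without all such cells the log2 fold changes against Eomes- CD4 cells were 3.8 for Ccl5, 2.94 for Gzmk, 2.66 for Prf1, 4.43 for Klre1, 6.15 for Irx3, 6.21 for Phactr3 and 5.80 for Ret. Ctsw was not called without them (0.49). Against Eomes+ CD8 cells 3 calls were lost without them, among them those of Ifitm3 (0.26) and Il1r2 (2.13). Maf (4.01), Il10 (4.11) and Spp1 (8.03) were still called. In the test for unequal CD4 and CD8 steps, 14 calls on named genes were kept and 3 were lost.

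B-cell and myeloid genes were uneven between libraries. The 10 B-cell markers summed to 1419, 851 and 3281 CPM in Eomes+ CD4, 1353, 502 and 1065 CPM in Eomes- CD4 and 485, 354 and 406 CPM in Eomes+ CD8 cells, of which Cd74 had the most, none was at 0, and Ms4a1 had 2 UMIs. Against Eomes- CD4 cells Ighm was lower (-0.67) and the other 5 tested were not called, and without replicates 2 and 3 in turn Ighm was not called (-0.84 and -0.75). Against Eomes+ CD8 cells Cd74 (2.34 ± 0.38) and H2-Aa (2.35 ± 0.37), both of the MHC class II pathway, were higher, but their signs turned without cells with at least 5 class II UMIs (-0.19 and -0.27), which are left out by this RNA itself, and without cells with an NK or γδ UMI (-0.81 and -0.65). Class II UMIs were concentrated, since 290 of 1707 H2-Aa UMIs came from 1 cell and 15 of 340 cells (4.41%, against 2.14% of Eomes- CD4 cells) had at least 5 class II UMIs. Without such cells Tyrobp (1.08) and Ifitm3 (1.23) were not called against Eomes+ CD8 cells. The steps of Tyrobp (0.24), Ctsz (0.56) and Ccdc88a (2.44) were not called either. Dnase1l3 kept its calls against both groups (4.31 against Eomes- CD4 and 5.70 against Eomes+ CD8 cells) but not that of its step (2.68).

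The 10 macrophage and dendritic cell markers summed to 411, 316 and 472 CPM in Eomes+ CD4 cells and 331, 158 and 268 CPM in Eomes- CD4 cells, most of it Cst3 at a mean of 347 CPM. Cd68 alone was called (1.58 ± 0.25), though not without replicate 2 (1.27), C1qb was at 0 and C1qa had 1 UMI. Islet hormone genes summed to 93.1, 25.0 and 63.7 against 90.9, 33.3 and 25.4 CPM, Ins2 having the most of the 6 genes, and none was called. When cells with a UMI of any of the B-cell, myeloid, NK and γδ genes Cd79b, Ms4a1, Ighm, Lyz2, C1qa, Csf1r, Ncr1 and Trdc were left out, 248 of the 340 cells remained and 144 of 161 calls on named genes were kept. The 17 lost included those of Tyrobp (2.21) and Fcer1g (1.00) against Eomes- CD4 cells and of both against Eomes+ CD8 cells (2.37 and 1.70), of Tigit (0.88), Cxcr5 (0.78) and Ctsw (0.38) against Eomes- CD4 cells, and of the steps of Ctsz (1.20), Ccdc88a (2.15) and Filip1l (1.75). Cd74 (2.68) and H2-Aa (3.28) remained higher than in Eomes+ CD8 cells. Beyond these fits without cells, the part of other cell types in the results was not tested.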

How the data were processed

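The authors aligned reads with Cell Ranger 6.0.1 to mm10 and deposited UMI counts per gene and cell, as whole numbers without normalization, for 3 libraries with 33851381, 74775394 and 80806452 UMIs in 5844, 9537 and 11566 cells. Cells were selected and their counts summed in Python 3.11.15 as described above, giving 12 sums of 4 groups in 3 libraries. The sums were fitted together in edgeR 4.0.16 (R 4.3.3) with TMM normalization, the filterByExpr filter, the library as a term and Benjamini-Hochberg adjustment. The groups come from the same animals, so they were paired by library; sums of the same library deviated together (correlation 0.207 to 0.720 over 18 pairs, against -0.607 to 0.385 over 36 pairs from different libraries). Genes were named if they had 1 of the 10 largest log2 fold changes in a direction. Eligible genes had an adjusted p under 0.05, the same sign in 3 libraries and a mean of at least 50 CPM in the higher group. Mitochondrial, ribosomal and immunoglobulin genes were left out. For the difference of steps, genes were named by the 10 smallest adjusted p. Members of 22 lists were named as well. The members, lists and rules were chosen with earlier results of these data known. DESeq2 1.42.0, other filters and other cell limits were alternatives. To mark doublets, cells were ranked by the number of simulated doublets among their nearest neighbours. The top 7.6% of the cells in each library that passed the limits on UMIs and mitochondrial genes were marked. This share was set in advance, and the marked cells were kept. Gene positions are from GENCODE M21 on GRCm38. Some members of the lists are counted but not reported by name here.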

Additional observations from a re-analysis of the deposited data

Results flagged for a closer look

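The step that went with an Eomes UMI differed between CD4 and CD8 cells, by edgeR's test of the difference itself, for 10 named genes. In log2 units the difference was 2.18 for Klrd1, 2.34 for Bend4, 2.51 for Prf1, 2.09 for Ccl5, 1.5 for Gsto1, 1.54 for Ctsz, 3.13 for Ccdc88a, 3.01 for Ret and 2.17 for Filip1l, each with the larger value in CD4 cells, and -0.88 for Hmgb2, with the larger value in CD8 cells. Among other genes described, it was 1.57 for Nkg7, 0.98 for Gzmk, 5.05 for Dnase1l3, 3.25 for Tyrobp and 1.27 for Fos, and -1.03 for Il18r1, -1.08 for Itgb1 and -0.97 for Ifi27l2a. Klrd1, Bend4 and Ccl5 were the 3 of the 10 that were called in every fit without 1 library.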

How the results depend on the processing

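Of the 170 calls on named genes, 64 of 169 that could be refitted no longer passed without replicate 2, 63 of 169 without replicate 3, 7 of 168 without replicate 1, 15 of 170 with DESeq2, 110 of 170 with no replicate block, 43 of 167 with Eomes+ from 2 UMIs, 24 of 166 with Cd4 from 2 UMIs, 21 of 153 after thinning and 12 of 170 without the Nt5e limit on the comparison groups, where the Eomes- CD4 group had 5346 cells. With the study's limits on cells 34 of 142 no longer passed and 2 turned their sign. Cd4 from 2 UMIs and the fits without cells with class II UMIs or with NK or γδ UMIs were chosen after seeing the data. The genes called in Eomes+ against Eomes- CD4 cells ranged from 470 to 1711 in the fits without 1 library (1339 with all libraries), and were 280 with no replicate block, 868 after thinning to 2000 UMIs and 876 with Cd4 from 2 UMIs. Against Eomes+ CD8 cells they ranged from 160 to 965 (755 with all libraries), and were 87 with no replicate block, 182 with the study's limits on cells, 392 after thinning and 314 with Eomes+ from 2 UMIs. The genes with unequal steps ranged from 12 to 150 (56 with all libraries), and were 3 with no replicate block, 380 with no filter on low counts, 18 with the study's limits and 17 with Eomes+ from 2 UMIs. The Eomes+ share of CD4 cells was 4.36% after thinning and 4.73% with 2 UMIs, and 7.0% to 8.37% without 1 library. DESeq2 called 1190, 735 and 79 genes in the 3 comparisons. Signs turned for Cd74 without cells with class II UMIs, which were left out by that RNA itself (-0.55 against Eomes- CD4 and -0.19 against Eomes+ CD8 cells) and without cells with an NK or γδ UMI (-0.81 against CD8), for H2-Aa against CD8 in these settings (-0.27 and -0.65), and with the study's limits for St8sia6 against CD8 (-0.34), Ctla4 against Eomes- CD4 (0.54) and the step of Ctsz (-0.10). Lyz2, not called with all libraries, was -4.39 without replicate 2 and 3.64 without replicate 3 against Eomes- CD4 cells, and 33 of its 37 UMIs came from 1 cell. The cause was not tested. The Eomes+ CD4 sum of replicate 1, from 54 cells, was the shallowest and carries the largest counting error.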
